A study of Mus musculus with 2 samples.

Results

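Integrins are cell surface receptors made of an alpha and a beta chain, and each cell's set of chains decides which matrix proteins it can bind. Osteopontin, the secreted phosphoprotein encoded by Spp1, binds several of them through an arginine-glycine-aspartate site, among them the pairs of Itgav with Itgb1, Itgb3, Itgb5 and Itgb6, and it is also a ligand of Cd44, the main hyaluronan receptor. Itga3 with Itgb1 and Itga6 with Itgb1 or Itgb4 are laminin receptors of epithelia. In the uterus these genes are studied because embryo attachment takes place at the apical surface of the luminal epithelium, where osteopontin and integrins containing Itgav are candidates for bridging embryo and epithelium.

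The group examined here holds 10 genes, Spp1, Cd44 and 8 integrin chains, chosen by their symbol in the platform's gene annotation. That annotation paired 24 probe sets with 9 of the 10 genes, of 12393 genes with a probe set of their own and 22690 probe sets in all. No probe set was paired with Spp1 in it, so the osteopontin transcript itself was not analysed here, and whether one of the 1555 probe sets without a gene in it reads Spp1 was not determined. Of the 9 genes, 8 had a signal high enough for a ratio.

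RNA came from epithelial cells of the mouse uterus, collected in the morning of day 4 of pregnancy. The Stat3 knockout group and the control group were each read by 1 Affymetrix array, hybridised with RNA pooled from 3 animals or preparations. The sample title names floxed Stat3 control mice for both arrays, and the genotype label separates them. The extraction text names human stromal cells of the endometrium, while organism, cell type and source name give mouse uterine epithelium, which was followed here. The Cre driver of the deletion is not given in the sources used here, nor is what else the control mice carry. Epithelium was freed from the uterine wall by trypsin and squeezing, so cells of other types can be carried along. Fewer cells of a type and less RNA per cell cannot be told apart in such RNA.

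Values are MAS5 signals, the background-corrected brightness of a probe set on a linear scale. Both arrays had the same trimmed mean signal (150.1), and the median signal was 30.7 on the knockout array and 32.1 on the control array. Signals under 14.0, the 40th percentile, were treated as a floor. With 1 array per group there is no replicate error and no test, and the number of arrays limits the precision. Ratios of 2 probe sets of the same gene had an SD of 0.28 log2 units per probe set over 2853 genes, which is the only error measured and covers neither animals nor arrays. Stat3, the deleted transcription factor gene, had signals of 186 on the knockout array and 582 on the control array in its brightest probe set (log2 ratio -1.64), and of 160.0 in the knockout and 430.0 in the control in the next one. The remaining Stat3 probe set was under the floor on both arrays, and whether any of them lies in the deleted part was not determined.

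The epithelial identity of the RNA was visible on both arrays. Some stromal markers were bright too, such as Dcn, with 1753 in the knockout and 1235 in the control. All 11 epithelial markers named on the array were over the floor, with a summed signal of 27625 in the knockout and 24771 in the control. Krt8, a keratin of simple epithelia, had signals of 4289 in the knockout and 4220 in the control. The tight junction gene Cldn3 had 4944 in the knockout and 3514 in the control. Cldn4, a related claudin gene, was the 1 marker of the list past 2-fold, with 776 in the knockout and 371 in the control (2.09-fold higher). Elf3, an epithelial transcription factor gene, had 432 in the knockout and 842 in the control, just within 2-fold.

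Integrin beta 5 was the 1 measured chain of the group that was past 2-fold higher in the knockout. Itgb5 had a signal of 621 in the knockout and 241 in the control in its brightest probe set, or 2.58-fold higher (log2 ratio 1.37). The other 3 probe sets gave 464, 422 and 305 in the knockout, against 203, 163 and 93.5 in the control. All 4 probe sets therefore lay past 2-fold in the same direction, between 2.29-fold and 3.26-fold. The highest of these came from the 1 probe set of the gene whose name does not end in _a_at, _s_at or _x_at. Those endings mark designs that can read several transcripts or genes. Of the 8304 genes with a ratio, 2.93% had a ratio as high as that of Itgb5 or higher. Its alpha partner Itgav, which pairs with several beta chains to bind vitronectin, fibronectin and osteopontin, had signals of 664 in the knockout and 774 in the control (log2 ratio -0.22). A dimmer Itgav probe set had 12.7 in the knockout, under the floor, and 15.3 in the control.

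Cd44 was lower in the knockout. Its brightest probe set had a signal of 12.7 in the knockout, under the floor, and 39.9 in the control, which makes it at least 2.84-fold lower (log2 ratio -1.51 at the floor). The control signal was itself dim, and the second probe set, with 4.57 in the knockout and 6.29 in the control, was under the floor on both arrays. The Cd44 difference rests on 1 probe set.

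The 8 genes with a ratio included 1 past 2-fold on the higher side (Itgb5) and 1 past it on the lower side (Cd44). Over all genes with a ratio, 7.37% were past 2-fold higher and 9.92% past 2-fold lower in the knockout. With so few genes these shares do not set the group apart from the rest of the array. The median log2 ratio was -0.28 over the 8 genes and 0.05 over all genes.

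**Figure D1:**
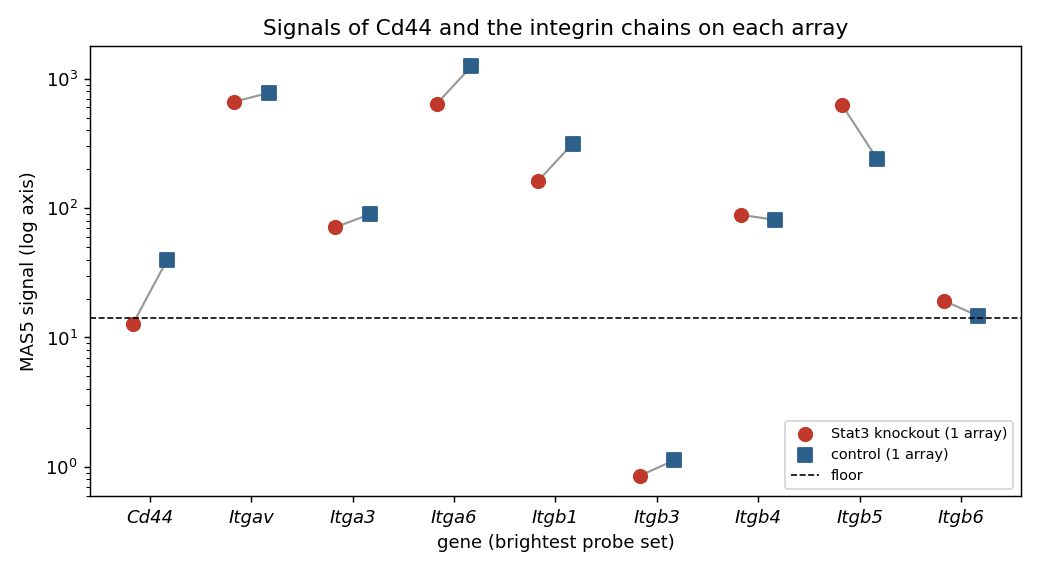
MAS5 signal (log axis) of the brightest probe set of Cd44 and the 8 integrin chains on the Stat3 knockout array (circle, left) and the control array (square, right), with the floor of 14.0 as a dashed line. Itgb5 stands higher in the knockout, Cd44, Itga6 and, in this probe set, Itgb1 stand lower, and Itgb3 lies under the floor on both arrays; heights of different genes are not comparable, since probe sets differ in brightness.

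**Figure D2:**
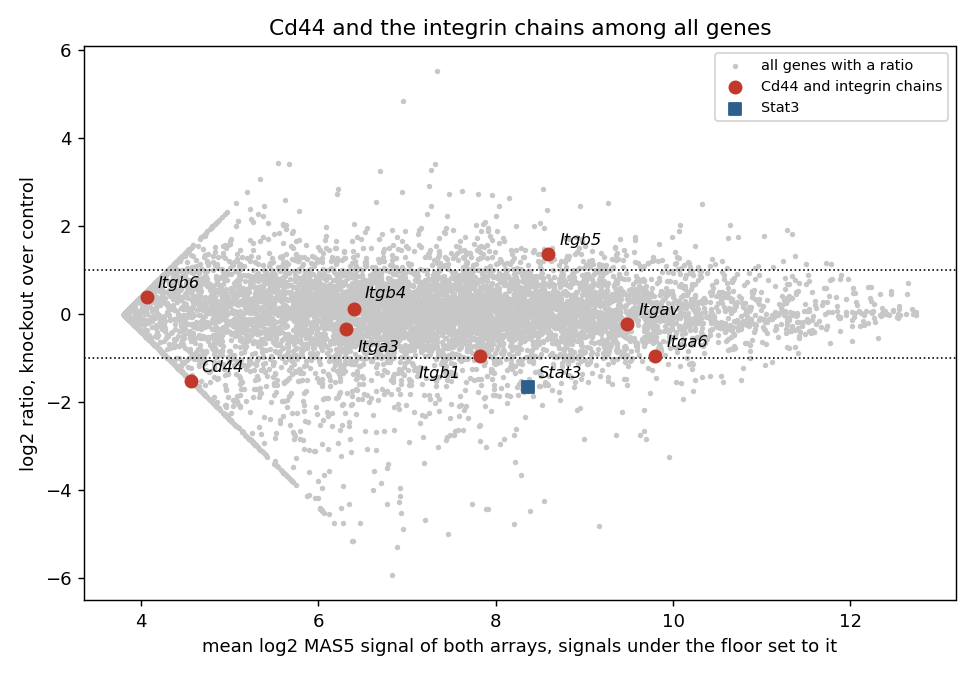
Log2 ratio of knockout over control against the mean log2 signal for all 8304 genes with a ratio (grey), with Cd44 and the integrin chains in red and Stat3 in blue, and dotted lines at 2-fold. Itgb5 lies above the upper line, Cd44 on the edge set by the floor, and Itga6 and Itgb1 just inside the lower line.

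The start regions of the 2 genes past 2-fold are shown because STAT factors bind DNA at a palindrome of the letters TTCNNNGAA, where N is any base. The sequences are the 250 bases before the annotated start of each gene, on the gene's own strand, from RefSeq (GRCm38.p6), at chr16:33829415-33829664 (plus strand) for Itgb5 and at chr2:102901666-102901915 (minus strand) for Cd44. They are printed 5′ to 3′ in lower case, with no capitals because no match was found.
Itgb5: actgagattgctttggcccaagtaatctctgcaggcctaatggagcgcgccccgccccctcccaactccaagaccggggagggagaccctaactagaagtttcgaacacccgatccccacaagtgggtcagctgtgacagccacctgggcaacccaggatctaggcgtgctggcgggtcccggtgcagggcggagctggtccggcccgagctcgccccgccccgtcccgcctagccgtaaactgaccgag
Cd44: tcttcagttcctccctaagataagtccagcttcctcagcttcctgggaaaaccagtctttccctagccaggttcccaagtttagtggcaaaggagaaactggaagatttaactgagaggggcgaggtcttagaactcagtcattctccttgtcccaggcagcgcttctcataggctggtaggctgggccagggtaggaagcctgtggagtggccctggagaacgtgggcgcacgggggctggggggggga
The search covered these bases and the 50 after each start, and since the motif is its own reverse complement it covered both strands. RefSeq's table held 8 such start regions for 6 of the 9 genes with a probe set (Cd44, Itgav, Itgb1, Itgb5, Itgb6 and Itga3), and none of the 8 had the letters. Of all 32851 start regions in the table, 8.3% had them. GC content of the 250 bases was 65.2% for Itgb5 and 56.4% for Cd44, against a median of 52.4% over the table.

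The laminin-binding chains lay below 2-fold. Itga6, the alpha chain of the hemidesmosome receptor, was bright on both arrays, with 641 in the knockout and 1243 in the control (log2 ratio -0.96). Its second probe set had 200.1 in the knockout and 372 in the control (log2 ratio -0.89), so both probe sets gave nearly the same ratio, just inside the 2-fold limit. Of all genes with a ratio, 10.7% had one as low as that of Itga6 or lower. Itgb4, the partner of Itga6 in hemidesmosomes, had 88.5 in the knockout and 81.0 in the control (log2 ratio 0.13) in its single probe set. Itga3, which binds laminins together with Itgb1, had 71.2 in the knockout and 89.5 in the control (log2 ratio -0.33). Its other 2 probe sets were under the floor on both arrays.

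For Itgb1, the common beta chain that pairs with the largest number of alpha chains, the probe sets did not give one answer. The brightest had a signal of 163 in the knockout and 315 in the control (log2 ratio -0.95). The next, nearly as bright, had 236 in the knockout and 207 in the control (log2 ratio 0.19). A dimmer one had 27.2 in the knockout and 38.7 in the control (log2 ratio -0.51), and 3 more were under the floor on both arrays. The 2 brightest differed by 1.14 log2 units, a gap that 1.51% of the 2853 genes with 2 measured probe sets reached. No direction is given for Itgb1 for this reason.

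The chains that pair with Itgav in activated or remodelling epithelium and in bone-resorbing cells were dim. Itgb6, an epithelial chain known for activating latent TGF-beta, had 19.2 in the knockout and 14.7 in the control, both close to the floor (log2 ratio 0.39). A second Itgb6 probe set had 16.6 in the knockout and 9.87, under the floor, in the control. Itgb3 had 0.854 in the knockout and 1.12 in the control in its only probe set, so no ratio was formed, and no difference was detectable at these signals. At a limit of 1.5-fold, 1 of the 8 genes was higher (Itgb5) and 3 were lower by their brightest probe sets (Cd44, Itga6 and Itgb1, the last not borne out by its next probe set), against 19.4% and 18.6% of all genes.

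**Figure D3:**
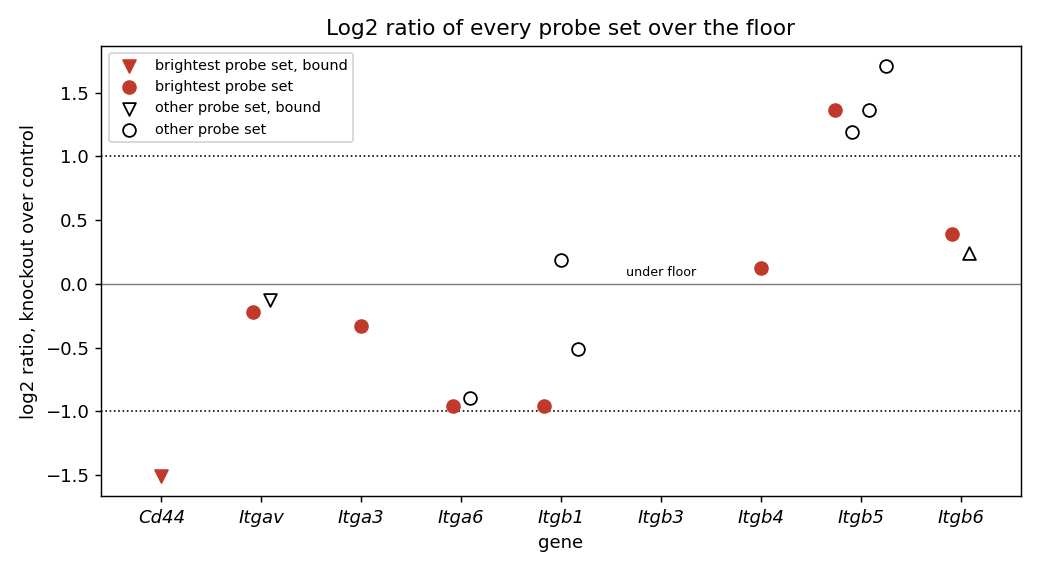
Log2 ratio of knockout over control for every probe set of Cd44 and the integrin chains that was over the floor on at least 1 array; filled symbols are the brightest probe set of a gene, open symbols the others, triangles are bounds against the floor, and dotted lines mark 2-fold. The 4 Itgb5 probe sets lie between 1.19 and 1.71, the 2 Itga6 probe sets close together at -0.96 and -0.89, and the 3 Itgb1 probe sets on both sides of 0.

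Other integrin chains were mostly not measurable. Of 11 other alpha chains named on the array, 9 were under the floor on both arrays, as were the 3 other beta chains and the 4 proteins of the osteopontin family besides Spp1 (Dmp1, Ibsp, Dspp and Mepe). The leukocyte chains Itga4, Itgal, Itgam, Itgax, Itgb2 and Itgb7 were among those under the floor. Itga9, a receptor chain for cleaved osteopontin, had 30.0 in the knockout and 83.8 in the control, or 2.79-fold lower. A second Itga9 probe set did not show this, with 35.8 in the knockout and 32.1 in the control. Itga2b, best known from platelets, had 78.8 in the knockout and 77.5 in the control.

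The list of enzymes around osteopontin held 11 genes, of which 5 (Mmp3, Mmp9, Mmp12, F2 and Plau) were under the floor on both arrays. Of the 6 measured genes, 4 were past 2-fold lower and 0 past 2-fold higher, beside 9.92% and 7.37% of all genes. The list was chosen with earlier results of these data known, which limits what these shares show. All 6 log2 ratios were under 0, where 3873 of all 8304 genes were, and their median was -1.23. Tgm2, the transglutaminase that cross-links osteopontin, had 325 in the knockout and 2034 in the control, or 6.26-fold lower, and 4 further Tgm2 probe sets were between 5.09-fold and 7.21-fold lower. Fam20c, the secretory pathway kinase that phosphorylates osteopontin, had 32.0 in the knockout and 185 in the control, or 5.77-fold lower. The other 2 belong to the plasminogen system and act on osteopontin less directly: Plaur, the urokinase receptor gene, had 21.2 in the knockout and 55.8 in the control (2.63-fold lower), and Plat, tissue plasminogen activator, had 556 in the knockout and 1158 in the control (2.08-fold lower). Mmp7, a protease that cleaves osteopontin, was under the floor in the knockout (0.787) and had 23.8 in the control, at least 1.70-fold lower. Mmp2, another such protease, had 19.7 in the knockout and 28.9 in the control, within 2-fold.

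Laminins, which Itga3 and Itga6 bind, were listed together with other basement membrane genes. The 13 measured genes of this list included 2 past 2-fold lower and 1 past 2-fold higher, beside 9.92% and 7.37% of all genes. Their median log2 ratio was -0.08. Lamb1, a beta chain of several laminins, had 145 in the knockout and 442 in the control (3.05-fold lower), and 2 further probe sets gave 2.49-fold and at least 2.06-fold lower. Lamb3, a chain of the epithelial laminin to which hemidesmosomes attach, had 54.4 in the knockout and 139 in the control (2.57-fold lower), while Lama3, an alpha chain of the same laminin, had 418 in the knockout and 341 in the control. Lama4, a laminin chain known from vessels, was under the floor in the control (13.3) and had 28.4 in the knockout, at least 2.02-fold higher.

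Of 11 measured genes for arginine-glycine-aspartate and other matrix ligands, 1 was past 2-fold higher and 1 past 2-fold lower, beside 7.37% and 9.92% of all genes, and the median log2 ratio was 0.27. Thbs1, which encodes thrombospondin 1, had 327 in the knockout and 90.7 in the control (3.60-fold higher), and its second probe set was 4.19-fold higher. Fn1, which encodes fibronectin, had 56.7 in the knockout and 120 in the control (2.11-fold lower).

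Of 29 measured genes for proteins that link integrins to actin and to kinases, 3 were past 2-fold higher and 1 past 2-fold lower, beside 7.37% and 9.92% of all genes. Their median log2 ratio was -0.03. Ptk2b, a kinase gene related to focal adhesion kinase, had 359 in the knockout and 147 in the control (2.45-fold higher). Zyx, a focal adhesion protein gene, had 174 in the knockout and 74.4 in the control (2.34-fold higher), and Lims2, a partner of integrin-linked kinase, had 165 in the knockout and 80.7 in the control (2.04-fold higher). Tns1, which encodes the actin-binding protein tensin 1, was under the floor in the knockout (12.8) and had 33.1 in the control, at least 2.36-fold lower. Its second probe set, at 4.74 in the knockout and 26.5 in the control, was at least 1.89-fold lower and so within the limit. Actn1, an actin cross-linker gene, had 1974 in the knockout and 1490 in the control.

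In the list of hemidesmosome partners of Itga6 and Itgb4, 5 of 8 genes were measured and 1 was past 2-fold higher, where 7.37% of all genes were. Dst, the gene of a plakin that joins hemidesmosomes to keratin filaments, had 371 in the knockout and 110 in the control (3.37-fold higher). Its second measured probe set was 2.75-fold higher, and its remaining probe sets were under the floor on both arrays. Which Dst transcripts these probe sets read was not determined. Cd151, the tetraspanin that associates with Itga6 and Itga3, had 756 in the knockout and 585 in the control. Col17a1, Krt5 and Krt14, genes of stratified epithelium, were under the floor on both arrays.

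In the list around hyaluronan and Cd44, 2 of 13 measured genes were past 2-fold lower and 1 past 2-fold higher, beside 9.92% and 7.37% of all genes, and the median log2 ratio was 0.21. Hmmr, a hyaluronan receptor gene whose product also works at the mitotic spindle, had 18.9 in the knockout and 238 in the control (12.6-fold lower). The knockout signal was close to the floor, and the other 3 probe sets, all under the floor in the knockout, gave at least 2.00-fold, 3.09-fold and 4.55-fold lower. Msn, which encodes moesin, a linker of Cd44 to actin, had 49.2 in the knockout and 117 in the control (2.38-fold lower). The related linkers Rdx and Ezr had 2763 in the knockout and 2084 in the control, and 1903 in the knockout and 1797 in the control. Nf2, which encodes merlin, a binding partner of Cd44, had 666 in the knockout and 291 in the control (2.29-fold higher), and its 3 other probe sets were 2.10-fold to 2.53-fold higher. The hyaluronan synthase genes Has1, Has2 and Has3 were under the floor on both arrays.

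**Figure D4:**
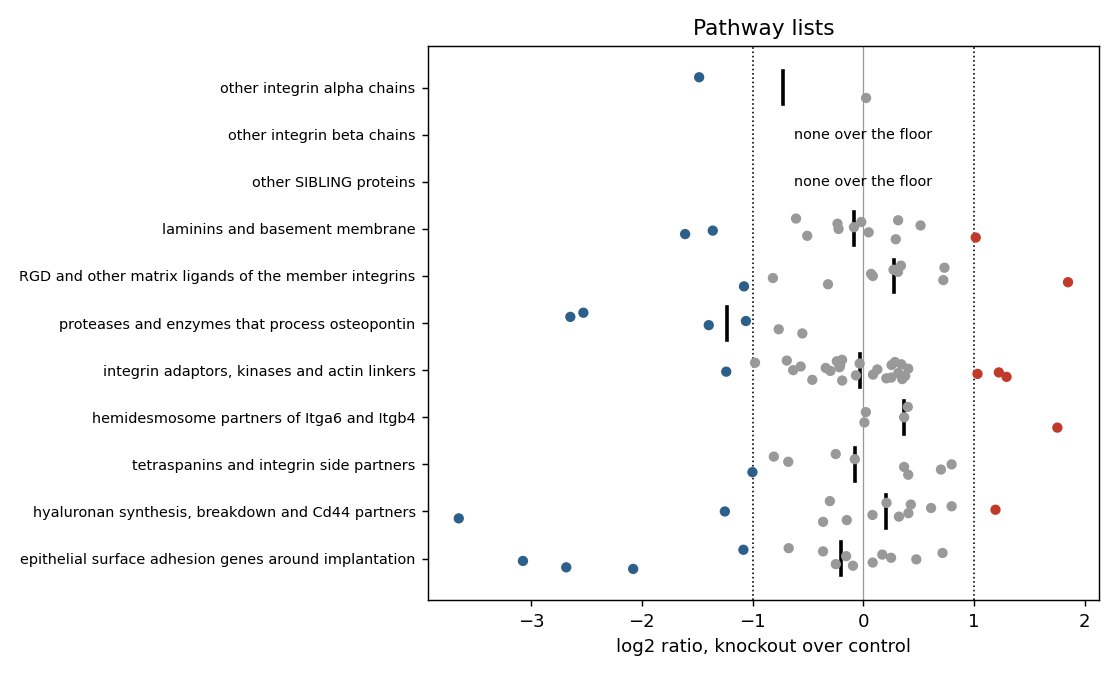
Log2 ratio of knockout over control for each measured gene of the 11 lists around osteopontin, integrins and Cd44 (rows); red points are at least 2-fold higher, blue at least 2-fold lower, black bars are medians, and dotted lines mark 2-fold. The enzymes around osteopontin all lie below 0 with a median of -1.23, and the adaptor list is centred near 0.

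Markers of other cell types were read beside these values, since integrins, Cd44 and matrix genes are also expressed outside epithelium. Of all 8304 genes with a ratio, 4431 had log2 ratios above 0 and 3873 under 0. Past 2-fold higher were 7.37% of them and past 2-fold lower 9.92%. Summed signals take every marker of a list on the array with its signal as read, also those under the floor. Of 11 measured stromal markers, 10 had log2 ratios above 0 and none was past 2-fold, with a summed signal of 3890 in the knockout and 2797 in the control. Of 12 measured macrophage and dendritic cell markers, 11 were above 0 and 1 past 2-fold (C1qa), with sums of 3137 in the knockout and 1983 in the control. Most of both sums came from Cd14, with 2101 in the knockout and 1262 in the control, and Cd68 lay the other way, with 44.4 in the knockout and 81.1 in the control. Of 3 measured mesothelial markers, Upk3b had 372 in the knockout and 145 in the control and Msln had 71.2 in the knockout and 34.7 in the control, both past 2-fold, and the summed signal was 477 in the knockout and 201 in the control. These lists lay on the side of Itgb5 and Thbs1 and opposite to Cd44. So did the epithelial list, with 8 of 11 markers above 0 and a median log2 ratio of 0.21. The 3 measured markers of the T, NK and B cell list (Ptprc, Klrd1 and Gzma) lay above 0 as well. Of the 2 measured platelet and erythroid markers, Itga2b was at 0.03 and fell to -0.05 under loess. Pf4 had 16.3 in the knockout and 4.86, under the floor, in the control. All 4 measured smooth muscle and pericyte markers were under 0, on the side of Cd44, as were 3 of 4 measured endothelial ones. Rgs5 of pericytes, at 7.22, under the floor, in the knockout and 29.5 in the control, was at least 2.10-fold lower. The part of these cell types in the results was not tested. The endothelial markers Pecam1, Kdr and Tek were under the floor on both arrays, and so were Myh11 of smooth muscle, Cd3e of T cells and S100a8 of neutrophils. The summed endothelial signal was 94.0 in the knockout and 105 in the control, with 6 of 10 markers under the floor on both arrays. That of smooth muscle markers was 147 in the knockout and 209.7 in the control, with 5 of 9 under it. Lymphocyte markers summed to 125 in the knockout and 107 in the control, with 10 of 13 under it. Neutrophil markers summed to 591 in the knockout and 701 in the control. Almost all of this came from Ltf, and the 7 others on the array were under the floor on both arrays, so 1 gene alone stands for that list. Platelet and erythroid markers summed to 122 in the knockout and 105 in the control, with 5 of 7 under the floor. Gland markers differed in both directions, with 3 of 6 measured ones above 0 and 3 under it. Spink1 had 155 in the knockout and 14.2 in the control. Sox9 had 3.69, under the floor, in the knockout and 94.9 in the control. Lif had 12.4, under the floor, in the knockout and 29.8 in the control, at least 2.12-fold lower. Foxa2 lay within 2-fold (log2 ratio 0.12). Gland markers summed to 227 in the knockout and 183 in the control. The largest part came from Spink1 in the knockout and from Sox9 in the control, so these sums mainly reflect single genes.

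**Figure D5:**
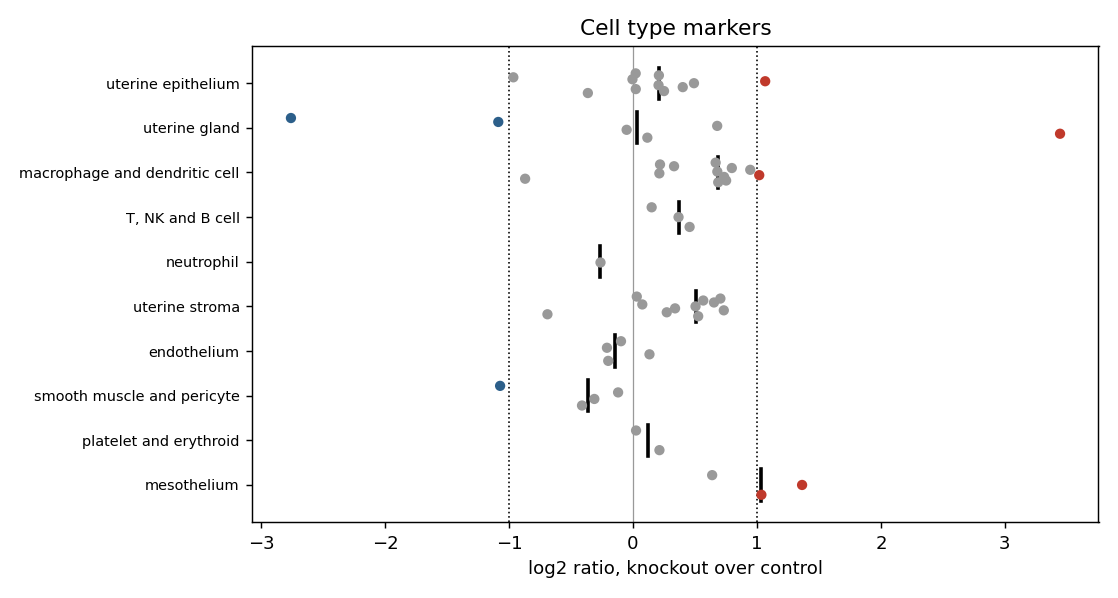
Log2 ratio of knockout over control for each measured marker gene of 10 cell types (rows), coloured as past 2-fold higher (red), past 2-fold lower (blue) or within 2-fold (grey), with medians as black bars. Stromal, macrophage and mesothelial markers have medians of 0.51, 0.68 and 1.04, and the epithelial median is 0.21.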

How the data were processed

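Mouse uterine epithelial RNA of day 4 of pregnancy was read on Affymetrix Mouse Genome 430A arrays, 1 for a Stat3 knockout pool and 1 for a control pool (n = 3 per pool in the design text). The authors deposited linear intensity values, 1 for each probe set on each array, made with MAS5 in Affymetrix Expression Console 1.1 as far as the submitters' processing notes name tools. Equal trimmed means (2% left out at each end) show that the arrays had been scaled together, which fixes the mean difference near 0 and would hide a global shift. Detection calls were not used here.

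Of 22626 probe sets that are not controls, 20380 had 1 gene, 691 several and 1555 none in the platform annotation. Symbols were updated by gene ID through RefSeq (GRCm38.p6), which held 99.9% of those with 1 gene. No probe set of the 9 genes lists another gene. Each gene was represented by its brightest probe set (mean log2 signal), with the others as a check. For ratios, signals under the 40th percentile (14.0) were set to it. No ratio was formed for the 4089 genes below it on both arrays, and the 791 below it on 1 array have a bound, written "at least". Log2 ratios of knockout over control carry no pseudocount, and calls are at 2-fold. No test exists with 1 array per group. Python 3.11.15, pandas 2.3.3 and numpy 2.4.6 were used, and the ratio step was tested on simulated data.

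The genes, the 11 lists (158 names) and the 10 marker lists were chosen with earlier results of these data known. From each list up to 6 genes past 2-fold and up to 3 of the brightest others could be named. Genes under the floor, and Pecam1, Kdr, Tek, Myh11, Cd3e, S100a8, Cd68 and Elf3 among the markers, were named outside that rule, after their values were seen. Alternatives changed scaling (median centring, quantile, or loess over 0.3 of the probe sets), the floor (none, the 60th or the 20th percentile, or its value as a pseudocount), the probe set and the fold limit. Protein sequences were not used here.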

Additional observations from a re-analysis of the deposited data

How the results depend on the processing

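Each alternative changed 1 setting. Itgb5 stayed at least 2-fold higher under all 11 settings of scaling, floor and probe set, the one reported included (log2 ratio 1.19 to 1.71), and Cd44 at least 2-fold lower under the 9 that gave it a ratio (-1.65 to -1.01). Itga6 stayed within 2-fold under all 11 (-0.97 to -0.89). Itgb1 ran between -0.995 and 0.19, with -0.42 for the mean of its probe sets. Of 74 recomputed values of the 8 genes, 70 moved by less than the probe set SD of 0.28. Of 760 recomputed values of list genes and list medians, 682 did. Part of these values could not move. Another floor leaves genes bright on both arrays as they were, and a mean over 1 measured probe set changes nothing. Leaving out the _a_at, _s_at and _x_at designs changes nothing where the brightest probe set is not one. These counts, those of Cd44 included, are therefore no measure of stability. The only called value that changed sign was Itga9, with 0.16 in its second brightest probe set. Other genes called past 2-fold fell within it under some settings. Under loess these were Lims2, Lama4, Msln and C1qa. The floor value as a pseudocount brought the same genes within 2-fold, and also Fn1, Plaur, Tns1 and Lif. With the floor at the 60th percentile Fn1, Msn, Msln, C1qa, Muc4, Sox9 and Itga9 lay within it. Plat did so under median centring.

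Counts followed the floor and the fold limit. The number of the 8 genes at least 2-fold lower was 1, and it was 0 with the floor at the 60th percentile, where Cd44 is under the floor on both arrays, and 0 in the second brightest probe sets. At 1.5-fold it was 3 and at 3-fold 0, and the number higher at 3-fold was 0. Of the 101 measured genes of the lists, 7 were higher and 16 lower, beside 7.37% and 9.92% of all genes. With no floor the list counts were 17 and 30, at 1.5-fold 14 and 25, at 3-fold 2 and 7. With the floor at the 60th percentile 10 were lower, and in second brightest probe sets 6. Over all genes the counts were 612 higher and 824 lower. With the floor at the 20th percentile 1094 were higher. At the 60th percentile the counts were 346 and 449, with no floor 1927 and 1774, in second brightest probe sets 258 and 248 (fewer genes have one), at 1.5-fold 1607 and 1541, and at 3-fold 143 and 401. Leaving out probe sets that list several genes changed nothing, since none was used. No paired analysis was possible because each group has 1 array. Signals near the floor limit Cd44, Itgb3 and Itgb6.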

Other observations

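Surface molecules of the epithelium that are studied around implantation were in part far lower in the knockout. Of 14 measured genes, 4 were past 2-fold lower, against 9.92% of all genes, and 0 were past 2-fold higher. This list, too, was chosen with earlier results of these data known. The list's median log2 ratio was -0.20. Sdc1, which encodes the heparan sulfate proteoglycan syndecan 1, a co-receptor at matrix contacts, had 32.4 in the knockout and 273 in the control (8.41-fold lower), and its second probe set was 10.6-fold lower. Muc4, a membrane mucin gene, was under the floor in the knockout (8.11) and had 90.1 in the control, at least 6.42-fold lower. Muc1, the mucin that covers the luminal surface, had 99.0 in the knockout and 418 in the control (4.22-fold lower). Ceacam1, a cell adhesion molecule of the immunoglobulin superfamily, had 439 in the knockout and 930 in the control (2.12-fold lower), and 6 further probe sets were 2.30-fold to 2.75-fold lower. Cd24a had 4758 in the knockout and 5076 in the control, Epcam had 2335 in the knockout and 3003 in the control, and Cdh1 had 2708 in the knockout and 2275 in the control.

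Of 9 measured tetraspanins and other side partners of integrins, 1 was past 2-fold lower and 0 higher, beside 9.92% and 7.37% of all genes. It was Cd81, with 418 in the knockout and 836 in the control, right at the limit (2.00-fold). Under median centring (log2 ratio -0.94), quantile scaling and the floor value as a pseudocount, Cd81 lay within 2-fold. The other 8 genes lay within it as reported. Cd9, a tetraspanin of epithelial surfaces, had 3984 in the knockout and 3007 in the control, and Tspan8 had 1374 in the knockout and 1449 in the control.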
